A study of Mus musculus with 6 samples.

Results

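The genes described here encode spliceosome proteins and splicing regulators, taken from a mouse leukemia RNA sequencing table by symbol alone. Members are the rows whose symbol starts with Srsf, Hnrnp, Sf3a, Sf3b, Snrp, Prpf, U2af, Mbnl, or Rbm followed by a digit. The rule found 105 of 13007 rows. They fall into 8 families: 11 Snrp, 9 Sf3, 3 U2af, 13 Prpf, 10 Srsf, 20 Hnrnp, 36 Rbm and 3 Mbnl genes. Of the members 104 are protein coding, and Rbm3os is a noncoding RNA from the strand opposite Rbm3, kept because the rule takes it. Membership did not depend on any measured value, and all 105 passed the filter on low counts.

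Poly-A RNA was sequenced from 3 libraries of acute erythroid leukemia (AEL) cells and 3 libraries of normal erythroid precursors (NC), all from C57BL/6 mouse bone marrow. The AEL cells are labelled Trp53-/- and ERG-expressing. They had been transduced to overexpress the ETS transcription factor ERG together with GFP, and were sorted for GFP. The NC cells are labelled WT and came from marrow stained for CD71 and Ter119, so each group was sorted on its own markers, and effects of leukemia and of sorting cannot be told apart. The tissue label of all 6 libraries, NC included, speaks of SETBP1 and ASXL1 mutations, at odds with the WT label. The titles call the libraries of each group biological replicates (bio rep). Neither the ages nor whether replicates were separate animals were given in the sources used here. P-values therefore measure the spread between these samples only, which may not be the spread between animals.

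The libraries held 8171676 to 9945330 counts. Trp53 was higher in the libraries labelled Trp53-/- (976 to 1172 CPM) than in NC (162 to 177 CPM), which goes against that label unless the reads come from outside the deleted part, and counts per gene cannot tell; hence they are called libraries labelled Trp53-/-. Erg stood at 557 to 790.1 CPM in AEL and 4.39 to 8.53 CPM in NC. Of 10 erythroid markers 8 were lower and 0 higher in AEL, with none at 0 throughout a group. The AEL libraries varied far more among themselves than NC did, with a biological coefficient of variation of 44.3% against 9.02% over all genes. CPM here is the usual depth-scaled count, taken on a TMM-scaled library total. A gene is said to have risen or fallen when edgeR's quasi-likelihood test, fitted on all 12427 genes tested, gave an adjusted p under 0.05. Fold changes are AEL over NC on the log2 scale unless a fold is named.

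Splicing removes introns from a pre-mRNA in a sequence of assemblies. The U1 snRNP marks the start of the intron and U2AF its end; the U2 snRNP, through SF3A and SF3B, takes the branch point; and the U4/U6.U5 tri-snRNP, rich in PRPF proteins, then joins and is rearranged into the catalytic machine. SR proteins mostly help exons to be recognised, hnRNP proteins often hold them back, and RBM and MBNL proteins tune particular exons. In red cell precursors the splicing program changes as the cells mature, and genes of the splicing machinery, among them SF3B1, SRSF2 and U2AF1, are recurrently mutated in human myeloid neoplasms.

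Changes in splicing factor genes were fewer and smaller than over all genes. Of 105 members 17 rose and 13 fell, so 28.6% changed, beside 52.8% of all genes tested (23.9% higher, 29.0% lower). The median member lay at a log2 fold change of 0.02, beside -0.05 for all genes, and the median absolute log2 fold change was 0.33 for members and 0.74 for all genes. Changes of at least 2-fold that passed the test numbered 7 higher and 1 lower, beside 1621 higher and 2696 lower of the 12427 genes tested. The groups did not overlap for 53 members, 25 higher and 28 lower, that is 50.5% beside 66.0% of all genes (29.9% higher, 36.1% lower). The median member varied with a coefficient of variation of 14.2% among the AEL libraries and 6.61% among NC, beside 25.0% and 10.1% for all genes. Members took 2.67% to 2.93% of all counts in the AEL libraries and 2.32% to 2.45% in NC.

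**Figure D1:**
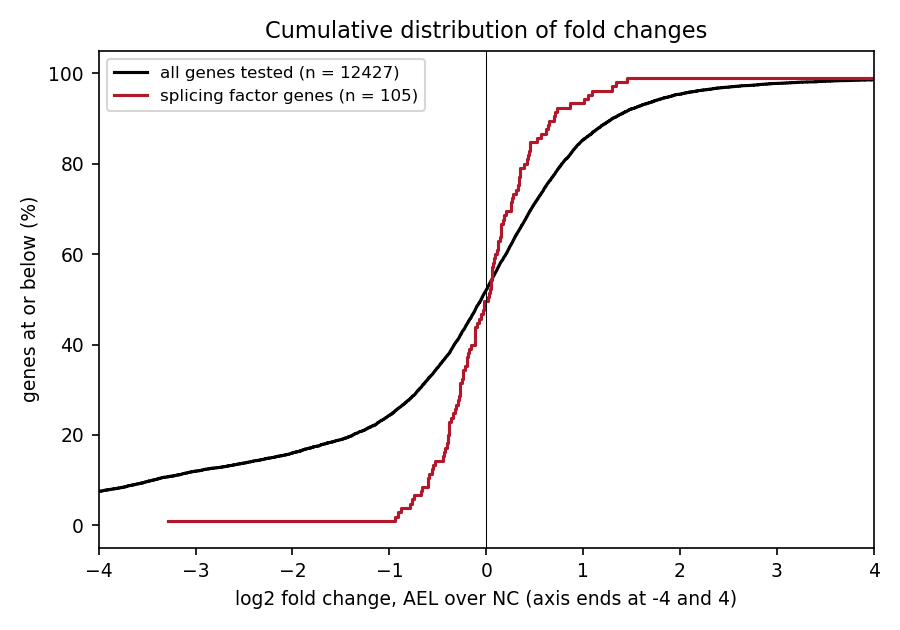
Cumulative share of genes (%) at or below each log2 fold change of AEL over NC, for the 105 splicing factor genes (red) and all 12427 genes tested (black). The red curve rises steeply around 0, with 8 members at a change of at least 2-fold in either direction, against 4849 of all genes.

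The number called was sensitive to the NC libraries. Without NC replicate 1, 2 or 3 the members higher numbered 9, 9 and 11 and the members lower 5, 5 and 10, while the share of all genes called went to 37.1%, 37.3% and 38.2%. Without AEL replicate 1, 2 or 3 they numbered 21, 24 and 20 higher and 10, 12 and 12 lower, beside 54.8%, 58.7% and 51.8% of all genes called. With library totals in place of TMM scaling 29 members were higher and 5 lower, so 85.3% of the called members were higher instead of 56.7%; over all genes the same share went from 45.2% to 55.2%, and 55.4% of all genes were called. That scaling moved the median of all genes from -0.05 to 0.14 and the median member to 0.20, which left the members 0.07 above all genes under both. Of the 30 members called, 12 were called under every alternative tried: Prpf8, Rbm28, Rbm19, Rbm34, Rbm27, Rbm33, Rbm11 and Hnrnpul1 on the higher side, and Snrpe, Srsf3, Hnrnph2 and Rbm38 on the lower side. Rbm11 was not tested under the stricter filter of 10 CPM. Of all genes 44.1% were called with the replicate block, 55.3% with DESeq2, 55.8% and 56.2% with limma at pseudocounts of 1 and 5 CPM, 52.7% with median-of-ratios scaling and with the robust fit, 52.4% with upper quartile scaling, 52.3% with no filter, 53.9% with the stricter filter and 56.9% with chromosome medians removed.

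**Figure D2:**
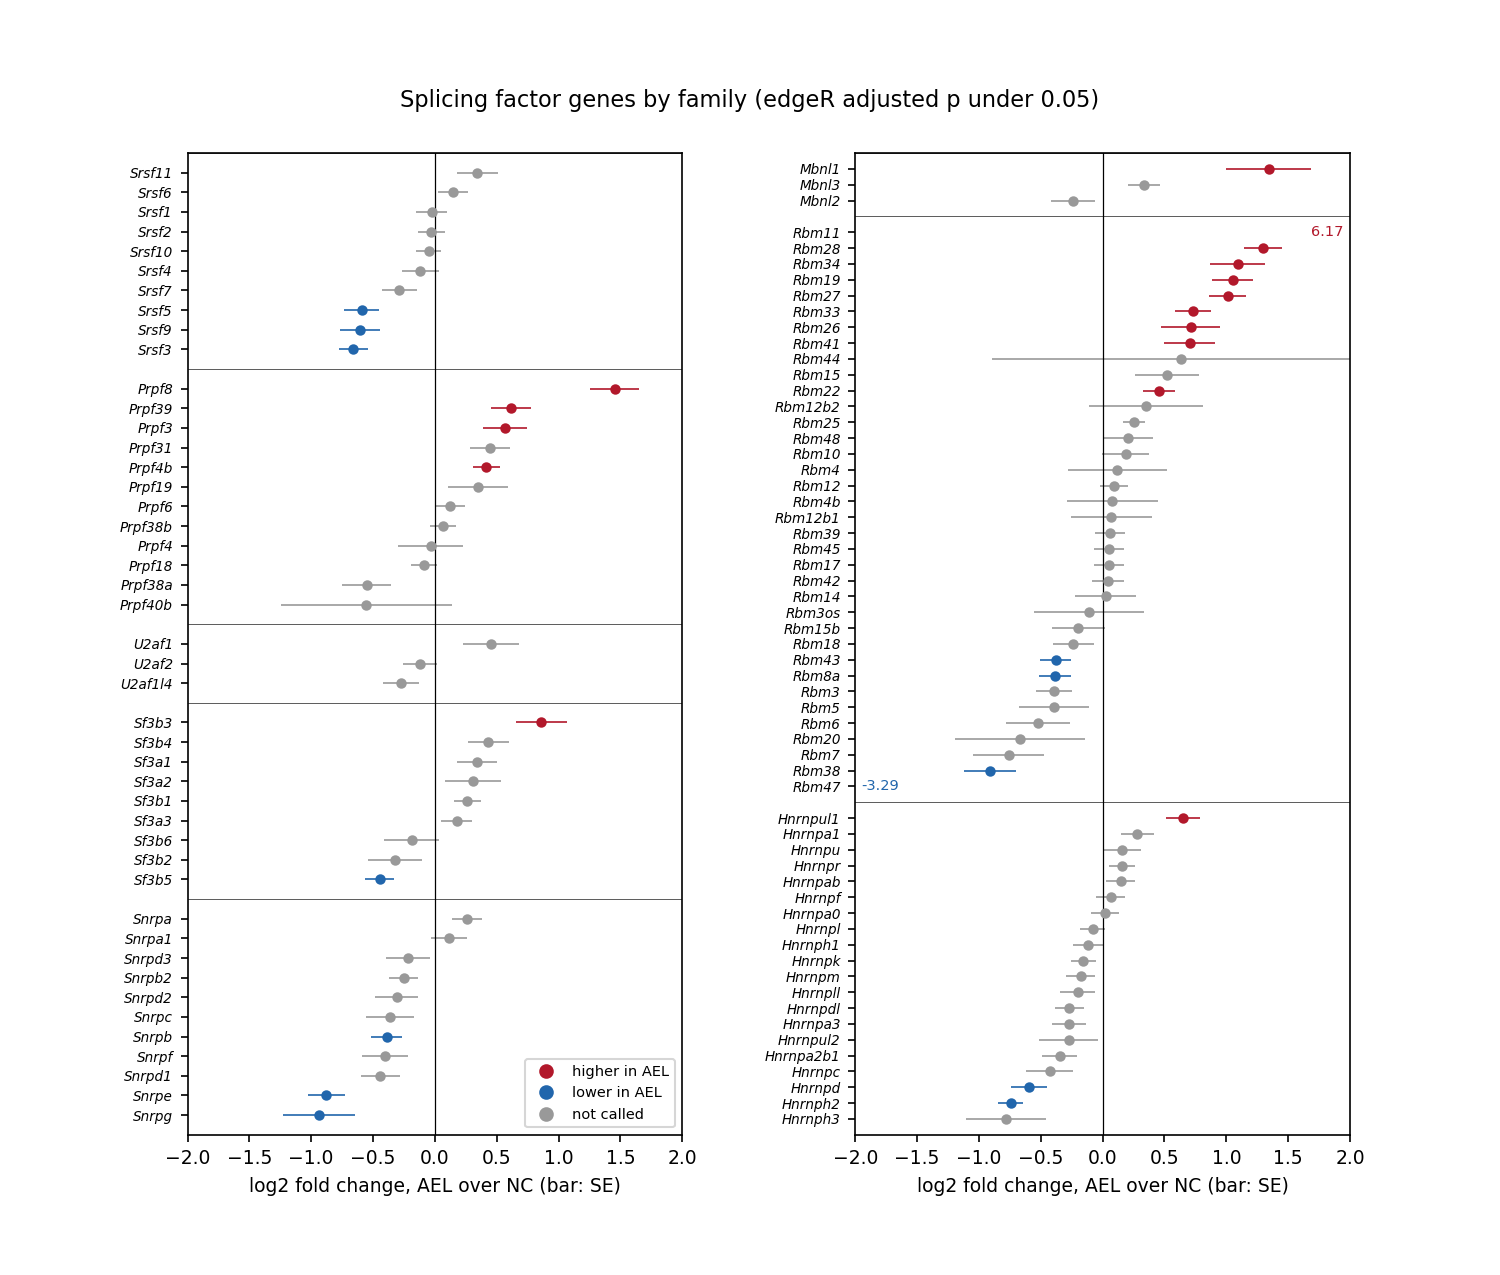
Log2 fold change of AEL over NC for the splicing factor genes, 1 of them left out, grouped by family, with the SE as a bar; colours mark genes higher, lower or not called at an edgeR adjusted p under 0.05. Rbm11 (6.17) and Rbm47 (-3.29) lie off the axis and are written as values, and the bar of Rbm44 runs past it; Snrpe and Snrpg lie lowest among the Snrp genes, and Prpf8, Mbnl1 and Rbm28 lie farthest right of the points drawn.

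Promoters were examined because ERG, the transcription factor introduced into the AEL cells, belongs to the ETS family, whose members bind the letters CCGGAAGT at many housekeeping promoters. RefSeq starts (GRCm38.p6, the assembly that mm10 names) were found for 88 members. A gene could have several starts, and it was counted if the letters stood before any of them. In the 250 bases before a start, CCGGAAGT on either strand was present in 9 of the 88, or 10.2%. The share was 7.04% of 8939 tested protein-coding genes counted in the same way. Of 32851 single windows of that length 2.88% held it, a share by window that is not comparable with the shares by gene. The members holding it included 2 of 14 that rose and 2 of 10 that fell, so the letters stood before starts of genes of both directions. CACGTG, the E-box bound by MYC among others, which reads the same on both strands, was present in 12 of 88 members (13.6%) and in 10.1% of the tested genes; it stood before 4 of 14 that rose and 2 of 10 that fell. These are matches of letters and show no binding. The 4 changed members with CCGGAAGT are printed 5′ to 3′ on the strand of the gene, with CCGGAAGT, its reverse complement ACTTCCGG and CACGTG in capitals. Rbm19 (chr5:120116263-120116512, plus strand) and Prpf4b (chr13:34875279-34875528, plus strand) rose, and Srsf5 (chr12:80945249-80945498, plus strand) and Hnrnpd (chr5:99978939-99979188, minus strand) fell. The windows of Prpf4b and Hnrnpd precede starts inside the annotated gene. That of Prpf4b lies wholly within its gene (chr13:34874820-34906064). Most of that of Hnrnpd, with its capitals, lies within its gene (chr5:99955935-99979130).
Rbm19: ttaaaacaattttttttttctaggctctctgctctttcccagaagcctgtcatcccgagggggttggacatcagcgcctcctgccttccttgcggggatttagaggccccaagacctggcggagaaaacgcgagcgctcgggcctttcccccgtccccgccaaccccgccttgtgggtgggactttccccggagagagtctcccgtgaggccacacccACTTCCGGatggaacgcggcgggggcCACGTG
Prpf4b: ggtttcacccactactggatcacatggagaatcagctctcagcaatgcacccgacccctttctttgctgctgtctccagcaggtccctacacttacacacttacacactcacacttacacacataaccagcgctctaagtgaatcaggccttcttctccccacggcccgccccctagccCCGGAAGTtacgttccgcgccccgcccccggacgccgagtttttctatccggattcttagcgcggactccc
Srsf5: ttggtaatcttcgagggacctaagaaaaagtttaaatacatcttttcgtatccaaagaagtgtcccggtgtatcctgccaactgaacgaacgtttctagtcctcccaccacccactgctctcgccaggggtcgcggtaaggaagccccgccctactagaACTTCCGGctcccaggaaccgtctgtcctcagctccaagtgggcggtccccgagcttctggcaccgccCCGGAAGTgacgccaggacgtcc
Hnrnpd: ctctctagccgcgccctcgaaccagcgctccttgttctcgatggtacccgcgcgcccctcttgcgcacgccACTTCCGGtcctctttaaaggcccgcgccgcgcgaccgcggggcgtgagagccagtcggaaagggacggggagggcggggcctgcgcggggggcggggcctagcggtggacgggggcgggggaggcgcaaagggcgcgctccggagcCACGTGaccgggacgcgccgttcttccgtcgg
In Rbm19 the ETS letters begin 32 bases before the start and the E-box fills the last 6 bases. Srsf5 holds the ETS letters once on each strand, 91 and 23 bases before its start.

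Snrp genes encode the proteins that coat the spliceosomal snRNAs. Of 11 members 0 rose and 3 fell, with a family median of -0.36. That is 0% higher and 27.3% lower, beside 23.9% and 29.0% of all genes tested. With library totals alone 1 was higher and 1 lower, and 1 was lower without AEL replicate 2 or without NC replicate 1 or 2. Snrpe, a subunit of the Sm ring that encircles most spliceosomal snRNAs, was at 76.5, 64.3 and 82.0 CPM in AEL and 152, 138 and 119 CPM in NC. No AEL library reached the lowest NC library, and Snrpe fell 1.84-fold (log2 fold change -0.88, SE 0.15, adjusted p = 0.00311). Snrpg, another ring subunit, was scarce, at 18.02, 11.2 and 12.5 CPM in AEL and 34.3, 25.3 and 20.4 CPM in NC (log2 fold change -0.94, SE 0.29, adjusted p = 0.0313). Snrpb, which encodes the ring proteins SmB and SmB', was at 323, 259.8 and 316 CPM in AEL and 407, 406 and 363 CPM in NC (log2 fold change -0.39, SE 0.13, adjusted p = 0.0372). Both were lower in each AEL library than in any NC library. For Snrpg, 1 other annotated gene shares at least 95% identity over 300 bases or more, so its counts are less certain.

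The other ring genes, Snrpd1, Snrpd2, Snrpd3 and Snrpf, had log2 fold changes of -0.44, -0.31, -0.22 and -0.40 and did not pass (adjusted p = 0.0513, 0.177, 0.341 and 0.110). All 7 Sm ring genes thus had values below 0, with a median of -0.40, and they kept that sign under every alternative; the median was -0.22 with library totals alone. The 4 Snrp genes outside the ring, specific to U1 or U2, lay on both sides of 0, with a median of -0.07. Snrpa and Snrpa1 had values of 0.26 and 0.11, and Snrpc and Snrpb2 had -0.36 and -0.25. None of these 4 was called. Snrpa1, the member nearest to 0, was at 122, 104 and 99.1 CPM in AEL and 107, 108 and 85.6 CPM in NC. The call of Snrpb ended without any single library other than AEL replicate 3 (adjusted p = 0.0714 and 0.105 without AEL replicate 1 and 2, and 0.122, 0.126 and 0.0619 without NC replicate 1, 2 and 3). The call of Snrpg ended without AEL replicate 2 or 3 (adjusted p = 0.0618 and 0.0706) or NC replicate 1 or 2 (adjusted p = 0.128 and 0.0822). With library totals alone neither passed (adjusted p = 0.230 for Snrpb and 0.0609 for Snrpg). Snrpd1, Snrpd2, Snrpd3, Snrpf, Snrpa, Snrpc and Snrpb2 were chosen after their values were seen.

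SF3A and SF3B form the U2 snRNP module that grips the branch point. Of the 9 Sf3 genes 1 rose and 1 fell, or 11.1% each, beside 23.9% higher and 29.0% lower of all genes tested. With library totals alone 4 were higher and 0 lower. Without AEL replicate 1 there were 2 higher and 0 lower, without AEL replicate 2 there were 4 and 0, without NC replicate 1 there were 0 and 0, and without NC replicate 2 there were 1 and 0. Sf3b3, a large scaffold subunit of SF3B, was at 635, 461 and 819 CPM in AEL and 345, 358 and 352 CPM in NC. Every AEL library was above the narrow NC range, and Sf3b3 rose 1.81-fold (log2 fold change 0.86, SE 0.21, adjusted p = 0.0126), a call that ended without NC replicate 1 (adjusted p = 0.0515). Sf3b5, a small SF3B subunit, was at 90.5, 78.1 and 95.8 CPM in AEL and 123, 122 and 115 CPM in NC. It fell 1.36-fold (log2 fold change -0.45, SE 0.12, adjusted p = 0.0188), a call that ended without AEL replicate 1 or 2 (adjusted p = 0.0626 and 0.0553), without NC replicate 1 or 2 (adjusted p = 0.0732 and 0.0749) and with library totals alone (adjusted p = 0.129).

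Sf3b1, the subunit that contacts the branch point adenosine, was at 595, 654 and 691 CPM in AEL and 541, 531 and 543 CPM in NC. The groups did not overlap, but Sf3b1 missed the threshold (log2 fold change 0.26, SE 0.11, adjusted p = 0.0763). It passed without AEL replicate 1 (0.39, adjusted p = 0.0230), with DESeq2 (adjusted p = 0.0449) and with library totals alone (0.45, adjusted p = 0.0155). Sf3a3, the SF3 gene nearest to 0, was at 142, 127 and 155 CPM in AEL and 136, 121 and 117 CPM in NC. Subunits of one complex thus had values from -0.45 (Sf3b5) to 0.86 (Sf3b3).

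None of the 3 U2af genes passed in either direction. U2af1, which reads the AG at the intron's end, was at 21.8, 18.2 and 15.6 CPM in AEL and 15.0, 13.4 and 12.2 CPM in NC (log2 fold change 0.46, SE 0.23, adjusted p = 0.1303). Every AEL library was above every NC library, and U2af1 passed with library totals alone (adjusted p = 0.0462). U2af2, its partner on the pyrimidine tract, was at 389, 291 and 374 CPM in AEL and 378, 393 and 373 CPM in NC, with AEL replicate 2 below the rest. U2af1l4, a paralog of U2af1, was at 31.5, 38.7 and 38.4 CPM in AEL and 46.1, 42.9 and 42.5 CPM in NC (log2 fold change -0.28, SE 0.15, adjusted p = 0.156). Per kilobase of annotated exon, U2af2 averaged 92.7 CPM in NC and U2af1 5.20 CPM. For U2af1, 3 other annotated genes share at least 95% identity over 300 bases or more, so reads may be split between them.

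PRPF proteins belong mostly to the tri-snRNP and to the complexes that activate it. Of 13 Prpf genes 5 rose and 0 fell, with a family median of 0.35. That is 38.5% higher and 0% lower, beside 23.9% and 29.0% of all genes tested. Prpf8, the protein that cradles the catalytic RNA, was at 1352, 847 and 1317 CPM in AEL and 387, 448 and 449 CPM in NC. Even AEL replicate 2, the lowest of its group, was well above the NC libraries. Prpf8 rose 2.74-fold (log2 fold change 1.45, SE 0.20, adjusted p = 0.00160), from 428 ± 35.6 to 1172 ± 282 CPM (SD, n = 3 each), and this rise was called under all 17 alternatives, with values from 1.38 to 1.68.

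Prpf39, which works with U1, was at 91.8, 69.4 and 77.9 CPM in AEL and 55.3, 44.2 and 56.6 CPM in NC (log2 fold change 0.61, SE 0.16, adjusted p = 0.0183). Prpf3, of the U4/U6 particle, was at 106, 102 and 153 CPM in AEL and 83.9, 85.1 and 75.1 CPM in NC (0.57, SE 0.18, adjusted p = 0.0351). AEL replicate 3 stood apart for Prpf3, while Prpf39 was spread more evenly. Prpf4b, a kinase of the tri-snRNP, was at 263, 306 and 286 CPM in AEL and 223, 203 and 214 CPM in NC, and rose (0.42, SE 0.11, adjusted p = 0.0156). It was not called without NC replicate 2 or 3. Prpf4, nearest to 0, was at 91.2, 59.3 and 43.3 CPM in AEL and 63.8 to 68.6 CPM in NC, so its AEL libraries lay on both sides of NC. Prpf39 lost its call without NC replicate 1 or 2 (adjusted p = 0.0507 and 0.0726), and Prpf3 without NC replicate 1, 2 or 3 (adjusted p = 0.0906, 0.0861 and 0.117) and with upper quartile scaling (adjusted p = 0.0513). The number of Prpf genes higher was 2, 1 and 3 without NC replicate 1, 2 and 3. The share of all genes called then went to 37.1%, 37.3% and 38.2%. Prpf4b was chosen after its values were seen, for its promoter.

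SR proteins carry an RNA-binding part and a tail of arginine and serine, and several of them bind exonic enhancers. Of 10 Srsf genes 0 rose and 3 fell, with a median of -0.08. That is 0% higher and 30% lower, beside 23.9% and 29.0% of all genes tested. With library totals alone 1 was higher, 1 lower and the median 0.10, and without AEL replicate 3 there was 1 higher. Srsf3, the smallest of the classical SR proteins and also an export adaptor, was at 251, 210.4 and 233 CPM in AEL and 396, 343 and 359 CPM in NC. The groups were well apart, and Srsf3 fell 1.58-fold (log2 fold change -0.66, SE 0.12, adjusted p = 0.00383). Srsf9 was at 87.0, 70.4 and 97.3 CPM in AEL and 122, 147 and 118 CPM in NC (-0.60, SE 0.16, adjusted p = 0.0180). Srsf5 was at 165, 227 and 182 CPM in AEL and 309, 282 and 274 CPM in NC (-0.59, SE 0.14, adjusted p = 0.0132). For Srsf3, 4 other annotated genes share at least 95% identity over 300 bases or more, and for Srsf5 1 does. The counts of both are thus less certain.

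The SR genes with the highest level per exon length had values near 0. Srsf2 was at 723, 834 and 733 CPM in AEL and 797, 763 and 773 CPM in NC (log2 fold change -0.03, SE 0.11), and Srsf1 at 875, 689.5 and 825 CPM in AEL and 787, 815 and 831 CPM in NC (-0.03, SE 0.13), so the groups overlapped for both. Per kilobase of exon in NC, Srsf2 led the family at 263 CPM and Srsf1 followed at 142 CPM. Srsf9 lost its call without AEL replicate 1 (adjusted p = 0.0538) or NC replicate 2 (adjusted p = 0.0755), and Srsf5 without AEL replicate 3 (adjusted p = 0.0507) or NC replicate 1 (adjusted p = 0.0563). With library totals alone Srsf3 was still lower, and Srsf9 and Srsf5 did not pass (adjusted p = 0.0723 and 0.0548).

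**Figure D3:**
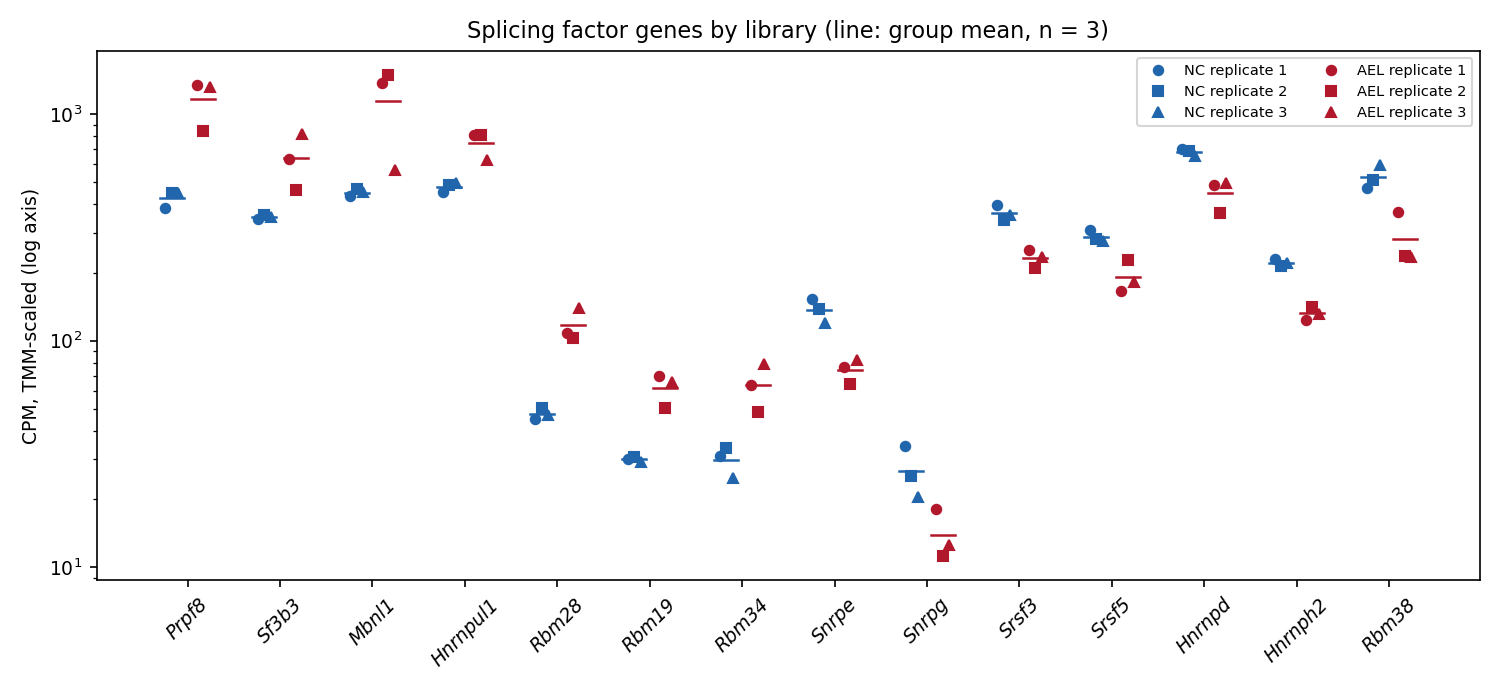
TMM-scaled CPM (log axis) of 14 splicing factor genes in each NC (blue) and AEL (red) library, with the group mean as a line. For each of the 14 genes the AEL libraries lie wholly on one side of the NC libraries; AEL replicate 3 is the low triangle for Mbnl1 (568 CPM) and the high one for Sf3b3 (819 CPM).

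The hnRNP proteins package nascent RNA, and 1 of 20 Hnrnp genes rose and 2 fell, with a median of -0.17. That is 5% higher and 10% lower, beside 23.9% and 29.0% of all genes tested. With library totals alone 4 were higher and 1 lower, with a median of 0.02, without AEL replicate 1 there were 4 lower, and with chromosome medians removed 6. Without AEL replicate 2 there were 2 higher, and without NC replicate 1 or 2 there was 1 lower. Hnrnph2, which binds runs of G, was at 124, 140.5 and 131 CPM in AEL and 229, 213 and 220.0 CPM in NC, a fall of 1.67-fold (log2 fold change -0.74, SE 0.10, adjusted p = 0.00155). Hnrnpd, also known as AUF1, a factor of AU-rich mRNAs, was at 486, 366 and 497 CPM in AEL and 702, 686 and 654 CPM in NC (-0.60, SE 0.15, adjusted p = 0.0131). Hnrnpul1, a relative of hnRNP U, was at 810.5, 809.8 and 629 CPM in AEL and 452, 486 and 498 CPM in NC, a rise of 1.57-fold (0.65, SE 0.14, adjusted p = 0.00766). In these 3 genes no AEL library fell within the NC range.

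Hnrnpa1, a widely acting splicing silencer, was at 356, 304 and 317 CPM in AEL and 310.3, 255 and 239 CPM in NC (log2 fold change 0.28, SE 0.14, adjusted p = 0.124); AEL replicate 2 lay within NC, and it passed with library totals alone (0.47, adjusted p = 0.0264). Hnrnpk, which binds C-rich RNA, was at 501, 541 and 515 CPM in AEL and 606, 583 and 546 CPM in NC (-0.16, SE 0.10, adjusted p = 0.243), and with library totals alone its value was 0.03. For Hnrnpa0, nearest to 0, the AEL range of 680.0 to 770.4 CPM lay inside the NC range of 670.4 to 774 CPM. Hnrnpd lost its call without NC replicate 1 or 2 (adjusted p = 0.0532 and 0.0515) and with library totals alone (adjusted p = 0.0537). Hnrnpa1 has 9 other annotated genes with 95% identity or more over 300 bases, Hnrnpk has 2 and Hnrnph2 has 1, which makes their counts less certain.

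The Rbm genes, grouped only by their RNA-binding motif, had the widest spread: 9 of 36 rose and 4 fell, with values from -3.29 to 6.17. That is 25% higher, near the 23.9% of all genes tested, and 11.1% lower, beside 29.0%. Fewer were called without single NC libraries (6 higher each time, and 1, 1 and 2 lower for NC replicates 1, 2 and 3). The share of all genes called then went to 37.1%, 37.3% and 38.2%. Without AEL replicate 1 there were 2 Rbm genes lower. The 3 Rbm genes named for the size of their change encode nucleolar proteins. Rbm28, the counterpart of a yeast factor of large ribosomal subunit assembly, was at 108, 103 and 140.1 CPM in AEL and 45.3, 50.7 and 47.0 CPM in NC. It rose 2.46-fold (log2 fold change 1.30, SE 0.15), with the lowest adjusted p of all members (9.46e-04). Rbm34, another nucleolar protein, was at 63.6, 48.3 and 79.0 CPM in AEL and 31.1, 33.7 and 24.9 CPM in NC (1.09, SE 0.22, adjusted p = 0.00646). Rbm19, the counterpart of a yeast factor of small subunit assembly and shown above with both motifs in its promoter, was at 70.0, 50.6 and 65.4 CPM in AEL and 30.1, 30.7 and 29.0 CPM in NC (1.05, SE 0.16, adjusted p = 0.00230). AEL replicate 2 was the lowest of its group for all 3 genes and still above every NC library.

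Further rises came from Rbm27 at 1.01 (SE 0.15) and Rbm26 at 0.71 (SE 0.24), related zinc finger proteins of nuclear RNA surveillance, and from Rbm33 at 0.73 (SE 0.14), Rbm41 at 0.70 (SE 0.20) and Rbm22, a factor of the activated spliceosome, at 0.46 (SE 0.13). These 5 genes were chosen after their values were seen. The calls of Rbm26, Rbm41 and Rbm22 ended without any single NC library, while those of Rbm27 and Rbm33 held in every alternative tried.

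Of the 3 Rbm genes that fell and averaged at least 10 CPM in NC, Rbm38 fell the most. It encodes an RNA-binding protein known to direct a late erythroid exon of the membrane skeleton protein 4.1R and to act on p53 mRNA. Its level was 369, 238 and 234 CPM in AEL and 471, 515 and 595 CPM in NC. No AEL library reached NC, and Rbm38 fell 1.88-fold (log2 fold change -0.91, SE 0.21, adjusted p = 0.0104), with values from -1.08 to -0.73 over the alternatives. Per kilobase of exon it was the highest Rbm gene in NC, at 184 CPM. It moved beside the erythroid markers, whose summed level was 3197 to 9074 CPM in AEL and 37761 to 50408 CPM in NC, and their part in its fall was not tested. In such bulk RNA fewer cells of a type and less RNA per cell cannot be told apart.

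Rbm8a, the exon junction protein Y14, and Rbm43 fell, with log2 fold changes of -0.39 (SE 0.13) and -0.38 (SE 0.13). Both calls ended with library totals alone, that of Rbm8a also without any single library other than NC replicate 3, and that of Rbm43 without any other than AEL replicate 3. Rbm3, a cold-induced protein, was at 154, 183 and 196 CPM in AEL and 267, 208 and 225 CPM in NC (log2 fold change -0.39, SE 0.15, adjusted p = 0.0583). Rbm3 shares exon positions with Rbm3os on the other strand, and the counting is not stated to use strand. Rbm15, part of the m6A methylation complex and a fusion partner in megakaryoblastic leukemia, was at 75.3, 91.1 and 151 CPM in AEL and 71.6, 68.8 and 80.6 CPM in NC. AEL replicate 1 lay within NC; Rbm15 did not pass (0.52, SE 0.26, adjusted p = 0.132) and passed without that library (0.79, adjusted p = 0.0284). Rbm14, nearest to 0, was at 152, 78.0 and 99.5 CPM in AEL and 96.6 to 118 CPM in NC. Rbm8a and Rbm43 were chosen after their values were seen.

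The extremes of the family were 3 scarce genes, chosen after their values were seen. Rbm11, a splicing regulator of restricted tissue range, was at 1.91, 11.3 and 15.6 CPM in AEL, while each NC library held a single count. Over the groups 292 counts stood against 3, a ratio of 83.5 with an exact 95% Clopper-Pearson interval of 28.3 to 407 that covers counting error only (log2 fold change 6.17, SE 0.99, adjusted p = 0.00264). Rbm47, a cofactor of RNA editing known from gut and myeloid cells, was at 0, 1.74 and 0.366 CPM in AEL and 4.52, 7.92 and 8.29 CPM in NC (-3.29, SE 0.96, adjusted p = 0.0258), and its call ended without AEL replicate 3 or any NC library. The summed neutrophil markers were 20.8, 1317 and 137 CPM in the same AEL libraries and 8560 to 10064 CPM in NC; the part of such cells in the Rbm47 values was not tested. Rbm44 was at 0.113 and 0.434 CPM in AEL replicates 1 and 2, at 35.1 CPM in AEL replicate 3 and at 6.19 to 10.6 CPM in NC. For Rbm44 the AEL libraries lay on both sides of NC, and its log2 fold change of 0.64 had an SE of 1.53. Without AEL replicate 3 it turned to a called fall (-4.70, adjusted p = 0.00243), so its direction rests on that library.

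MBNL proteins bind clustered YGC letters, steer exons during differentiation, and are sequestered by repeat RNA in myotonic dystrophy. Mbnl1 was at 1368, 1492 and 568 CPM in AEL and 434, 467 and 451 CPM in NC. AEL replicates 1 and 2 were near each other and replicate 3 was much lower, yet all were above NC. Mbnl1 rose 2.54-fold (log2 fold change 1.34, SE 0.34, adjusted p = 0.0155), from 450.4 ± 16.5 to 1143 ± 501 CPM (SD, n = 3 each). Its call ended without NC replicate 1, 2 or 3 (adjusted p = 0.0602, 0.0537 and 0.0581).

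Mbnl3 was at 109, 118 and 102 CPM in AEL and 84.8, 79.3 and 97.5 CPM in NC (log2 fold change 0.33, SE 0.13, adjusted p = 0.0639). It passed without AEL replicate 1 (adjusted p = 0.0491), without AEL replicate 3 (adjusted p = 0.0403) and with library totals alone (0.52, adjusted p = 0.0113). Mbnl2 was at 29.6, 25.4 and 23.9 CPM in AEL and 32.0, 27.2 and 34.1 CPM in NC, and the groups overlapped (-0.24, SE 0.18, adjusted p = 0.282). Per kilobase of exon in NC, Mbnl1 stood at 24.1 CPM, Mbnl3 at 9.97 CPM and Mbnl2 at 2.59 CPM.

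Part of the spread among AEL libraries followed the chromosome of the gene. In single AEL libraries the median of all genes of a chromosome lay away from NC: chromosome 9 at -0.67 in AEL replicate 1 and -0.72 in replicate 3, chromosome 14 at -0.66 and -0.70 in replicates 2 and 3, chromosome 19 at -0.86 in replicate 3, and chromosome 3 at 0.58 in replicate 2. These values are log2(CPM + 1) minus the NC mean. Of the members 21 lie on these 4 chromosomes, and all of the members below were chosen after their values were seen.

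The 4 members on chromosome 9 showed this together. Rbm5, Rbm6, Rbm7 and Rbm15b were at -0.65, -0.89, -1.02 and -0.38 in AEL replicate 1 and at -0.93, -0.85, -1.27 and -0.45 in replicate 3, and at 0.17, 0.01, -0.19 and 0.19 in replicate 2. Rbm5 and Rbm6, related splicing regulators that lie side by side, did not pass with all libraries (adjusted p = 0.271 and 0.129); each was called lower when AEL replicate 2 was left out. On chromosome 19 Sf3b2, Hnrnpul2 and Rbm4b were at -0.85, -0.88 and -0.88 in AEL replicate 3, against 0.05, 0.07 and 0.46 in replicate 1. The other 4 members there were nearer to 0 in AEL replicate 3, with Prpf19 at -0.27, Rbm4 at -0.38, Rbm14 at -0.11 and Rbm20 at -0.09. In AEL replicate 1 the same genes were at 0.69, 0.52, 0.50 and -0.99. All but Rbm20 were thus lower in replicate 3 than in replicate 1. On chromosome 14 Hnrnpc was at -0.06, -0.61 and -0.67 in AEL replicates 1 to 3. Mbnl2 there was at -0.06, -0.28 and -0.36. Rbm26 was above 0 in all 3, at 1.18, 0.41 and 0.36, and it too was lower in replicates 2 and 3 than in replicate 1. None of the 7 members on chromosome 19 and none of the 4 on chromosome 9 was called by edgeR with all 6 libraries. Mbnl1, on chromosome 3, had 1.601, 1.73 and 0.34, an order that its chromosome's medians (0.13, 0.58 and 0.24) did not share. The medians of the 7 members on chromosome 3 were 0.32, 0.33 and 0.34 in AEL replicates 1 to 3. The higher chromosome median of replicate 2 was thus not seen in them. With each chromosome's median taken out of each library, an alternative added after the data were seen and fitted with limma, 16 members were higher and 21 lower. Prpf3 then no longer passed (0.23, adjusted p = 0.410), nor did Prpf39 (0.41, adjusted p = 0.0570), Prpf4b or Rbm22. Hnrnpk passed as lower (-0.37, adjusted p = 0.0160), and so did Rbm7 on chromosome 9.

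**Figure D4:**
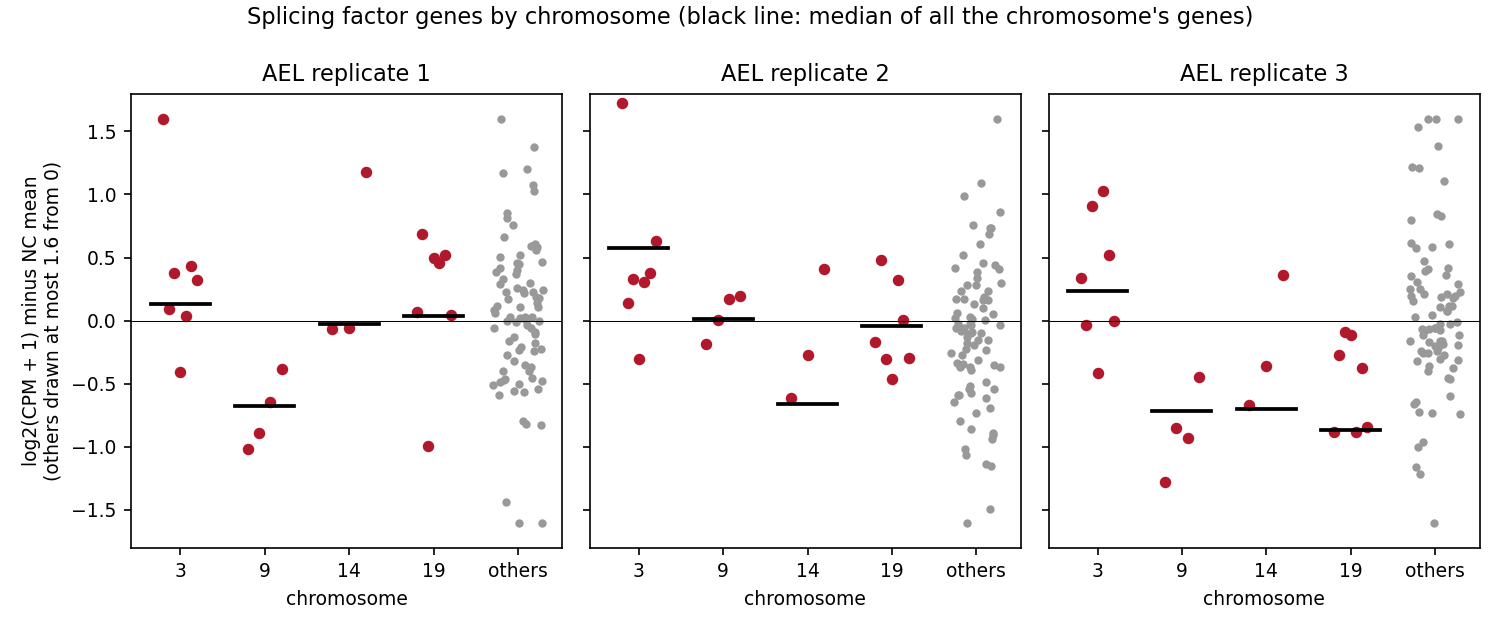
Log2(CPM + 1) minus the NC mean of splicing factor genes in each AEL library, for genes on chromosomes 3, 9, 14 and 19 (red) and all others (grey, drawn at most 1.6 from 0); the black line is the median of all genes of that chromosome at a mean of 10 CPM or more. The genes on chromosome 9 lie below 0 in AEL replicates 1 and 3 and around 0 in replicate 2, and the chromosome 19 genes lie below 0 in replicate 3.

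Splicing genes outside the naming rule were taken from 4 lists, of which 122 of 124 genes were tested. Of these 36 rose and 25 fell, 61 of 122 in all, beside 52.8% of all genes; without NC replicate 1, 2 or 3 the numbers were 20, 21 and 21 higher and 12, 10 and 13 lower. Of 51 other spliceosome proteins 12 rose and 12 fell, or 23.5% each. Those shares are near the 23.9% higher and 29.0% lower of all genes tested. Snrnp200, the helicase that unwinds U4/U6 and a direct partner of Prpf8, was at 769, 529 and 1103 CPM in AEL and 245, 257 and 281 CPM in NC (log2 fold change 1.62, SE 0.26, adjusted p = 0.00273). Aqr, an intron-binding helicase, rose by 1.45 (SE 0.12). Every AEL library was above every NC library for Snrnp200 and for Aqr.

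Of 26 snRNP assembly and Lsm genes 10 rose and 3 fell. That is 38.5% higher and 11.5% lower, beside 23.9% and 29.0% of all genes tested. Wdr77, the partner of the methylase that modifies Sm proteins, was at 107, 128 and 152 CPM in AEL and 40.0, 42.1 and 35.6 CPM in NC (log2 fold change 1.72, SE 0.16, adjusted p = 4.65e-04). Gemin5, which reads snRNAs for the SMN complex, was at 146, 117 and 159 CPM in AEL and 50.3, 53.8 and 52.5 CPM in NC (1.43, SE 0.14, adjusted p = 5.50e-04). Gemin7, another gene of the SMN complex, fell (-1.20, SE 0.13, adjusted p = 6.92e-04), and Gemin2 and Gemin6 were at -0.11 and 0.21 and did not pass (adjusted p = 0.659 and 0.576). Gemin4, Gemin8, Smn1, Ddx20 and Strap, of the same complex, rose (0.98, 0.96, 0.68, 0.58 and 0.36). Apart from Gemin5, these genes were chosen after their values were seen. Genes of this one complex thus lay on both sides of 0, but more of them rose, and only Gemin7 was called lower.

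Of 7 kinases of SR proteins 1 rose and 3 fell (14.3% and 42.9%), beside 23.9% and 29.0% of all genes tested. Srpk1, the main cytoplasmic SR kinase, rose by 1.16 (SE 0.13, adjusted p = 7.05e-04). Clk3, a nuclear one, fell by 1.12 (SE 0.27, adjusted p = 0.0125), a call that ended without NC replicate 3 (adjusted p = 0.0504). Clk3 lies on chromosome 9, where the medians of all genes were -0.67, 0.01 and -0.72 in AEL replicates 1 to 3. As log2(CPM + 1) minus the NC mean, Clk3 was at -1.27, -0.60 and -1.65 in the same libraries. Of 38 other splicing regulators 13 rose and 7 fell (34.2% and 18.4%), beside the same shares of all genes. Son, a scaffold of nuclear speckles, was at 905, 685 and 657 CPM in AEL and 311, 328 and 395 CPM in NC (1.12, SE 0.17). Celf2, a splicing regulator abundant in lymphocytes, was at 3.94, 7.60 and 6.13 CPM in AEL and 39.5, 49.9 and 60.1 CPM in NC (-3.08, SE 0.30). B cell markers summed to 1.69 to 2.56 CPM in AEL and 222 to 266 CPM in NC, with 9 of 9 lower and none at 0 throughout a group. T and NK cell markers summed to 0.225 to 1.09 CPM in AEL and 49.9 to 57.2 CPM in NC, with 4 of 4 tested lower. The part of these cells in the Celf2 values was not tested.

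Markers of the other marrow cells also differed between the groups. Of 14 neutrophil markers 12 were lower, and of 12 monocyte and macrophage markers 10 were lower, with sums of 29.5 to 105 CPM in AEL and 3398 to 4057 CPM in NC. Of 7 stroma and endothelium markers 6 were lower (sums of 4.30 to 9.98 CPM in AEL and 69.8 to 84.5 CPM in NC), and Col3a1 was at 0 in all AEL libraries. Megakaryocyte markers summed to 41.3 to 256 CPM in AEL and 76.1 to 95.9 CPM in NC, with 1 of 4 tested higher and 2 lower, and with Ppbp and Gp1bb at 0 in all AEL libraries. The part of these cells in the splicing gene values was not tested.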

How the data were processed

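The study's RNA came from sorted mouse marrow cells and was enriched for poly-A RNA, per the labels' protocols. The authors deposited 1 table of whole-number counts per gene (its name says CPM, but the columns sum to different totals). The submitters' processing notes name mm10 and edgeR 3.32.1 with no role; the aligner, counting tool and strand setting were not given in the sources used here.

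The 6 libraries were grouped by their titles. edgeR 4.0.16 (R 4.3.3) fitted the counts with TMM scaling and the group as the only term, over 12427 genes reaching 1 CPM in 3 libraries or more, with Benjamini-Hochberg adjustment at 0.05; the SE is the absolute log2 fold change over the square root of the test's F. DESeq2 1.42.0 and limma 3.58.1 (pseudocounts of 1 and 5 CPM), other scalings and filters, a robust fit, a replicate block and leaving out each library were the alternatives. At these depths 3 counts equal 0.274 to 0.387 TMM-scaled CPM. Replicates differed by more than sampling noise (chi-square per degree of freedom of 4.89 or more).

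The members and lists were chosen with earlier results of these data known. The naming rule took, per family, up to 3 called members with the largest change (groups apart, higher group averaging at least 10 CPM), the member nearest to 0, all members of families of 4 or fewer, Sf3b1, Srsf2, U2af1, Prpf8, Hnrnpa1, Hnrnpk, Mbnl1, Rbm3, Rbm15 and Rbm38, and up to 2 genes per other list. All 105 members matched RefSeq symbols; exon lengths are from GENCODE vM21. Exons of 41 members overlap another gene, and 27 of 104 have a near-identical stretch in another gene (95% over 300 bases), so their counts are less certain. Beside the genes marked above, the 27 include Snrpa, Snrpc, Snrpd1, Snrpd2, U2af2, Hnrnpc, Rbm3, Rbm4, Rbm4b, Rbm6, Rbm7 and Rbm8a. One member is counted in all totals but not reported here by itself.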

Additional observations from a re-analysis of the deposited data

How the results depend on the processing

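Depth limits the scarcest genes, such as Rbm11 with 1 count in each NC library and Rbm47 at 0 CPM in AEL replicate 1. With library totals alone 29 members were higher and 5 lower, the members' median was 0.20, and 51 other splicing genes were higher and 14 lower. With chromosome medians removed, an alternative chosen after seeing the data, 21 members were lower. The replicate block gave 11 members higher and 9 lower and 22 other splicing genes higher. Same-numbered AEL and NC libraries had correlations of their deviations of 0.06, -0.03 and -0.06. With 3 libraries per group and a wide spread in AEL, these values cannot tell whether same-numbered libraries shared a batch. Only AEL replicate 1 correlated best with its own number. Leaving out single libraries gave 9 to 24 members higher, 5 to 12 lower, a members' median of -0.02 to 0.06, and 20 to 49 other splicing genes higher and 10 to 23 lower. The cause of these shifts was not tested. The other alternatives kept every count of members and of other splicing genes within 1.5 times its main value. Rbm44, not called at 0.64, turned sign and was called lower (-4.70) without AEL replicate 3. Of the 30 members called, 12 were called in every alternative tried on them, and 30 members not called passed in at least 1 with the sign they had.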
